A study of Mus musculus with 32 samples.

Results

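The genes described here encode subunits of the mitochondrial respiratory chain and fall into a nuclear and a mitochondrial set. The nuclear set held the 67 protein-coding genes whose symbols begin with Nduf followed by a, b, c, s or v and a number, are Sdha, Sdhb, Sdhc or Sdhd, or begin with Uqcr or with Cox and a number from 4 to 8. The mitochondrial set held the 13 protein-coding genes of the mitochondrial genome. Together they were 80 of the 31053 genes in the count files. By symbol, 37 nuclear members belong to complex I, 4 to complex II, 8 to complex III and 18 to complex IV. The rule leaves out Cyc1 and Ndufab1, subunits of complexes III and I with other kinds of names, and it places Ndufa4 with complex I although its protein is now assigned to complex IV.

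Electrons from NADH enter the chain at complex I and those from succinate at complex II, pass by ubiquinone to complex III and by cytochrome c to complex IV, and there reduce oxygen. Complex II is encoded in the nucleus alone, whereas complexes I, III and IV and the ATP synthase each mix nuclear subunits with subunits made inside the mitochondrion. The mitochondrial genome is copied into long transcripts from both strands. These are cut into single mRNAs, mostly given short poly(A) tails, so the amounts of the mature mRNAs are set after transcription as well. Naive mouse embryonic stem cells are known to respire actively, and cells of the later, primed epiblast state are known to lean more on glycolysis.

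The study followed a mouse embryonic stem cell line, C1, through exit from naive pluripotency at different β-catenin doses. C1 cells are β-catenin-/- and carry, after a double lentiviral infection and antibiotic selection, a doxycycline (dox)-inducible fusion that joins a destabilising domain and mCherry to β-catenin S33Y, a constitutively active form, which trimethoprim (TMP) stabilises. At day 0, after 3 passages in 2i/L medium (LIF, a GSK3 inhibitor and a MEK inhibitor), C1 received 10 µM TMP alone for 48 h and was sorted for live cells, and C1M and C1H received 100 ng/mL dox with 10 µM TMP and were sorted for middle and high mCherry. At day 4, in N2B27-type medium without these factors, C1T came from C1 and kept TMP, C1MV and C1HV came from C1M and C1H with the inducers withdrawn and DMSO given, and C1MDT and C1HDT came from the same cells with dox and TMP kept. Each of the 8 groups had 4 biological replicates (32 libraries), all from a single parental line whose GEO labels describe serum/LIF culture where the methods describe 2i/L. The paper's heatmap caption places the 4 samples of each group in a single experiment. The spread between replicates may therefore not cover the spread between separate experiments. Every group that had the fusion had also had dox, a tetracycline known to act on mitochondrial ribosomes. An effect of dox and an effect of the fusion therefore cannot be told apart for any gene, nuclear or mitochondrial. C1MV and C1HV had no TMP during differentiation while C1T kept it, so an effect of TMP cannot be told apart in those comparisons. Day 0 libraries came from sorted cells and day 4 libraries from unsorted cultures, so the sort and the day cannot be told apart either.

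Levels are 3′ tag counts relative to the reads on genes (CPM), scaled by the trimmed mean of M values (TMM), and each library had between 1366951 and 3648787 reads on genes. A gene was tested if it reached 1 CPM in at least 4 libraries, which 15280 genes did, among them 66 nuclear and 12 mitochondrial members. The exceptions were Cox8b, with 3 reads or fewer in every library, and mt-Nd4l, with no read in any. Differences are log2 fold changes ± standard error from an edgeR quasi-likelihood fit over all 8 groups, and a member is said to have risen or fallen when its adjusted p (false discovery rate, FDR, over all tested genes) was below 0.05. Ctnnb1 tags, the check on the induced gene, were at 5.19 to 11.03 CPM in C1, 9.454 to 17.75 in C1M and 34.89 to 48.73 in C1H. At day 4 they were at 25.38 to 34.07 CPM in C1MDT, 28.26 to 36.31 in C1HDT and 4.134 to 12.4 in the other groups. C1MDT and C1HDT thus overlapped in Ctnnb1, and the middle and high doses named at day 4 refer to the day 0 sort. The 8 markers called naive here were Nanog, Esrrb, Zfp42, Klf4, Tfcp2l1, Tbx3, Pou5f1 and Sox2. The paper counts Sox2 as a general pluripotency marker, so their sums do not cover naive genes alone. The 8 summed to 6168 to 6391 CPM in C1, to 4604 to 5012 in C1M and C1H, all below C1, and to 538.3 to 1546 at day 4. The 4 post-implantation epiblast markers summed to 91.09 to 143.6 CPM at day 0 and 592.2 to 1376 at day 4. Because these are bulk libraries, a lower share of cells with a transcript and less of it in every cell cannot be told apart.

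The 3′ ends of the mitochondrial genes are shown because the authors counted only reads that map to a single place and the nuclear genome carries copies of mitochondrial sequence. The lines below show 60 bases of 6 genes, ending 10 bases before the end of the GENCODE transcript (GRCm38, mitochondrial genome, plus strand, where mt-Nd1 lies at chrM:2751-3707, mt-Nd4 at chrM:10167-11544, mt-Cytb at chrM:14145-15288, mt-Co1 at chrM:5328-6872, mt-Co2 at chrM:7013-7696 and mt-Co3 at chrM:8607-9390). Capitals mark the bases that differ from the closest annotated pseudogene, and a line without capitals either equals its copy or has no close copy, as stated after the lines.
mt-Nd1: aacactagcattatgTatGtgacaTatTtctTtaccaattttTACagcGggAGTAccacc
mt-Nd4: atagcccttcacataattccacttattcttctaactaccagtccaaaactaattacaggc
mt-Cytb: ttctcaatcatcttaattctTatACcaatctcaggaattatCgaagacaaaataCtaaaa
mt-Co1: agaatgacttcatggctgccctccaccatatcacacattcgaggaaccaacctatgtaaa
mt-Co2: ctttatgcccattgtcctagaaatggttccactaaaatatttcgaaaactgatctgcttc
mt-Co3: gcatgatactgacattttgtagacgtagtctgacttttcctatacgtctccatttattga
The mt-Nd1 stretch differed at 13 bases from Gm48258 and the mt-Cytb stretch at 5 bases from Gm11410, and mt-Nd4 had no copy within reach. The stretches of mt-Co1, mt-Co2 and mt-Co3 had 0 differences from the pseudogenes Gm29216, Gm28661 and Gm28437 on chromosome 1. Over the last 400 bases of each transcript, the share of 100-base windows that also occur, letter for letter, in another annotated gene was 97.6% for mt-Nd3, 98.5% for mt-Nd4l, 100% for mt-Co1, 99% for mt-Co2, 99.7% for mt-Co3 and 99% for mt-Atp6, was 9.97% for mt-Nd2, and was 0 for mt-Nd1, mt-Nd4, mt-Nd5, mt-Nd6, mt-Cytb and mt-Atp8. The counts did not follow this share alone, since mt-Co1 had 509 to 3254 reads in each library while mt-Nd6 had 1 to 55 and mt-Atp8 0 to 7, and the part of the copies in the counts was not tested. Of the mitochondrial reads counted, 99.7% fell on 6 genes: mt-Nd4, mt-Nd1, mt-Nd2, mt-Cytb, mt-Co1 and mt-Nd5. The remaining mitochondrial genes stood at 49.5 CPM or less in every library, so what is said of the mitochondrial set rests on those 6. In addition, mt-Atp8, mt-Atp6 and mt-Co3 overlap in sequence, as do mt-Nd4l and mt-Nd4 and, on opposite strands, mt-Nd5 and mt-Nd6.

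On differentiation the sets moved apart: the summed nuclear level was higher at day 4 than at day 0 and the summed mitochondrial level was lower. At day 0 the 13 mitochondrial genes summed to 23901 ± 2676 CPM for C1, 23522 ± 1408 for C1M and 22734 ± 2578 for C1H (mean with SD over n = 4), then to 17196 ± 1044 in C1T, and to 8112 ± 1070, 8469 ± 538, 7038 ± 1167 and 6916 ± 487 in C1MV, C1HV, C1MDT and C1HDT. Uninduced cells therefore lost 28.1% of the mitochondrial sum and cells induced beforehand lost 62.7% to 70.1%, with no overlap between day 4 and day 0 libraries in any of the 5 comparisons. Withdrawal of the inducers left the sum 52.8% and 50.8% below that of C1T in C1MV and C1HV, again without overlap.

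The 67 nuclear genes summed to 11108, 10462, 11143 and 11872 CPM in the 4 C1 libraries, 12509, 13113, 12274 and 13011 in C1M and 11041, 11162, 11453 and 11200 in C1H. At day 4 the sums were 12826, 13427, 12779 and 13040 in C1T, 14161, 14399, 14385 and 12861 in C1MV and 13850, 11736, 13349 and 12314 in C1HV. With dox kept they were 15211, 14286, 14736 and 14168 in C1MDT and 15270, 15508, 15574 and 15965 in C1HDT. The groups at day 4 and day 0 did not overlap for C1T and C1, C1MDT and C1M, C1HV and C1H, and C1HDT and C1H, with changes of 16.8%, 14.7%, 14.3% and 38.9%, and they overlapped for C1MV and C1M, where the mean was 9.62% higher. No test was made on the sums.

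The ratio of the sums does not depend on how libraries are scaled. Its log2 was 1.09 ± 0.22 in C1, 0.88 ± 0.13 in C1M, 1.01 ± 0.15 in C1H and 0.40 ± 0.1 in C1T, so mitochondrial reads outnumbered nuclear ones in these groups. It was -0.79 ± 0.26 and -0.60 ± 0.17 after withdrawal (C1MV, C1HV) and -1.07 ± 0.27 and -1.17 ± 0.11 with dox kept (C1MDT, C1HDT), where nuclear reads outnumbered mitochondrial ones in each library. Reads outside any counted gene, given by the counting program as a share of all it classified, moved with the mitochondrial sum, at 9.03% to 11.2% in the day 0 libraries, 6.5% to 6.79% in C1T and 4.72% to 6.83% in the other day 4 libraries, and their part in the result was not tested. Over the 6 mitochondrial genes with no repeated 3′ window, an alternative chosen after seeing the data, the sum was 16435 ± 1770 CPM in C1, 12436 ± 331 in C1T and 4959 ± 481 in C1HDT.

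**Figure D1:**
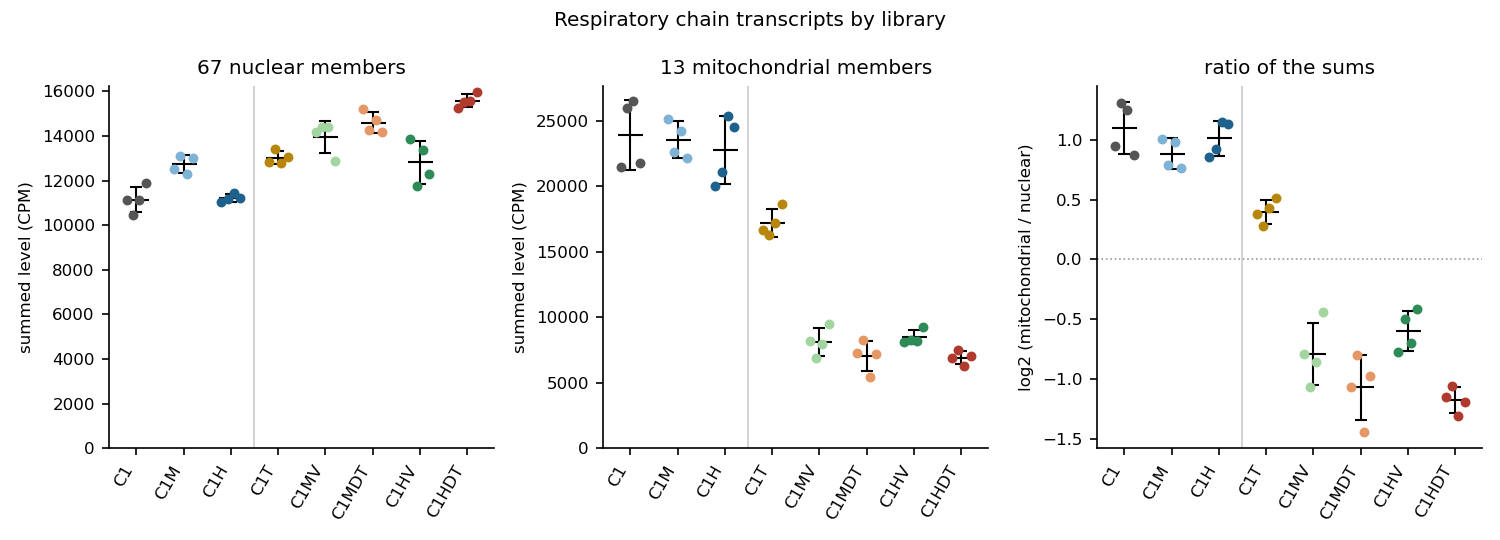
Summed CPM of the 67 nuclear members (left), of the 13 mitochondrial members (middle), and log2 of their ratio (right) in each of the 32 libraries; points are libraries, bars are the mean and SD of 4, and the grey line parts day 0 from day 4. The mitochondrial sums of the 4 groups induced beforehand lie between 5433 and 9468 CPM, below all C1T libraries (16271 to 18660), which lie below all day 0 libraries.

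In uninduced cells, mitochondrial genes did not fall in step. The complex I gene mt-Nd1 stood at 7373, 7354, 8300 and 7259 CPM in C1 and at 2932, 3069, 2994 and 2910 in C1T, a fall in which no library overlapped (log2 fold change -1.35 ± 0.089, adjusted p = 1.65e-15). The complex IV core gene mt-Co1 went from 830, 900, 972 and 909 CPM to 399, 411, 438 and 454, also without overlap (log2 fold change -1.09 ± 0.069, adjusted p = 7.98e-32). By contrast mt-Nd4, another complex I gene, was at 4771, 6644, 6457 and 5118 CPM in C1 and 6842, 6682, 7335 and 7209 in C1T, every C1T library above every C1 library, and did not pass the test (log2 fold change 0.29 ± 0.15, adjusted p = 0.108). The complex I genes mt-Nd2 and mt-Nd5 and the complex III gene mt-Cytb fell less than mt-Nd1 and mt-Co1, by 0.59, 0.33 and 0.35 on the log2 scale, with adjusted p = 0.00151, 0.000122 and 0.0227, and the mt-Cytb call was lost without C1 replicate 3 (adjusted p = 0.134). Among the low genes, mt-Co2 (14.2 to 21.3 CPM in C1 and 1.96 to 4.8 in C1T), mt-Co3 (29.6 to 49.5 and 7.15 to 13) and mt-Nd6 (9.86 to 12.2 and 2.61 to 5.83) also fell, and mt-Nd3, mt-Atp6 and mt-Atp8 did not pass the test. In all, 8 of 12 mitochondrial members fell from C1 to C1T, against 24.9% of all tested genes, and 0 rose, against 24.4%, a count that was also 0 at an unadjusted p below 0.05 and by DESeq2.

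In cells induced beforehand all 6 abundant mitochondrial genes fell, mt-Nd4 included, and their changes lay closer together. From C1H to C1HDT, mt-Nd4 went from 4933, 5142, 6662 and 6794 CPM to 1867, 1993, 1589 and 1739, the lowest day 0 library far above the highest day 4 one (log2 fold change -1.71 ± 0.15, adjusted p = 2.26e-10). From C1M to C1MDT it went from 7043, 6022, 6753 and 6287 CPM to 1901, 2128, 1246 and 1781 (log2 fold change -1.89 ± 0.15, adjusted p = 4.07e-11). The log2 changes of the 6 abundant genes lay between -2.0 for mt-Nd5 and -1.64 for mt-Nd1 in C1HDT against C1H, and between -1.92 for mt-Nd5 and -1.64 for mt-Nd2 in C1MDT against C1M. After withdrawal they lay between -1.79 for mt-Nd1 and -1.35 for mt-Nd2 in C1MV against C1M, and between -1.73 for mt-Co1 and -1.28 for mt-Nd4 in C1HV against C1H. Of the 12 tested members, 11 fell from C1M to C1MV (against 23.9% of all tested genes) and 12 from C1M to C1MDT (27.9%). From C1H to C1HV 10 fell (25.1%), and from C1H to C1HDT 10 (29.4%). In all 4 comparisons 0 rose, at an unadjusted p below 0.05 or by DESeq2 as well. The mt-Nd3 call in C1MV was lost without C1MV replicate 3 (adjusted p = 0.126). The mt-Atp8 call in C1MDT, on 0 to 5 reads a library, was lost without single libraries (adjusted p up to 0.155).

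**Figure D2:**
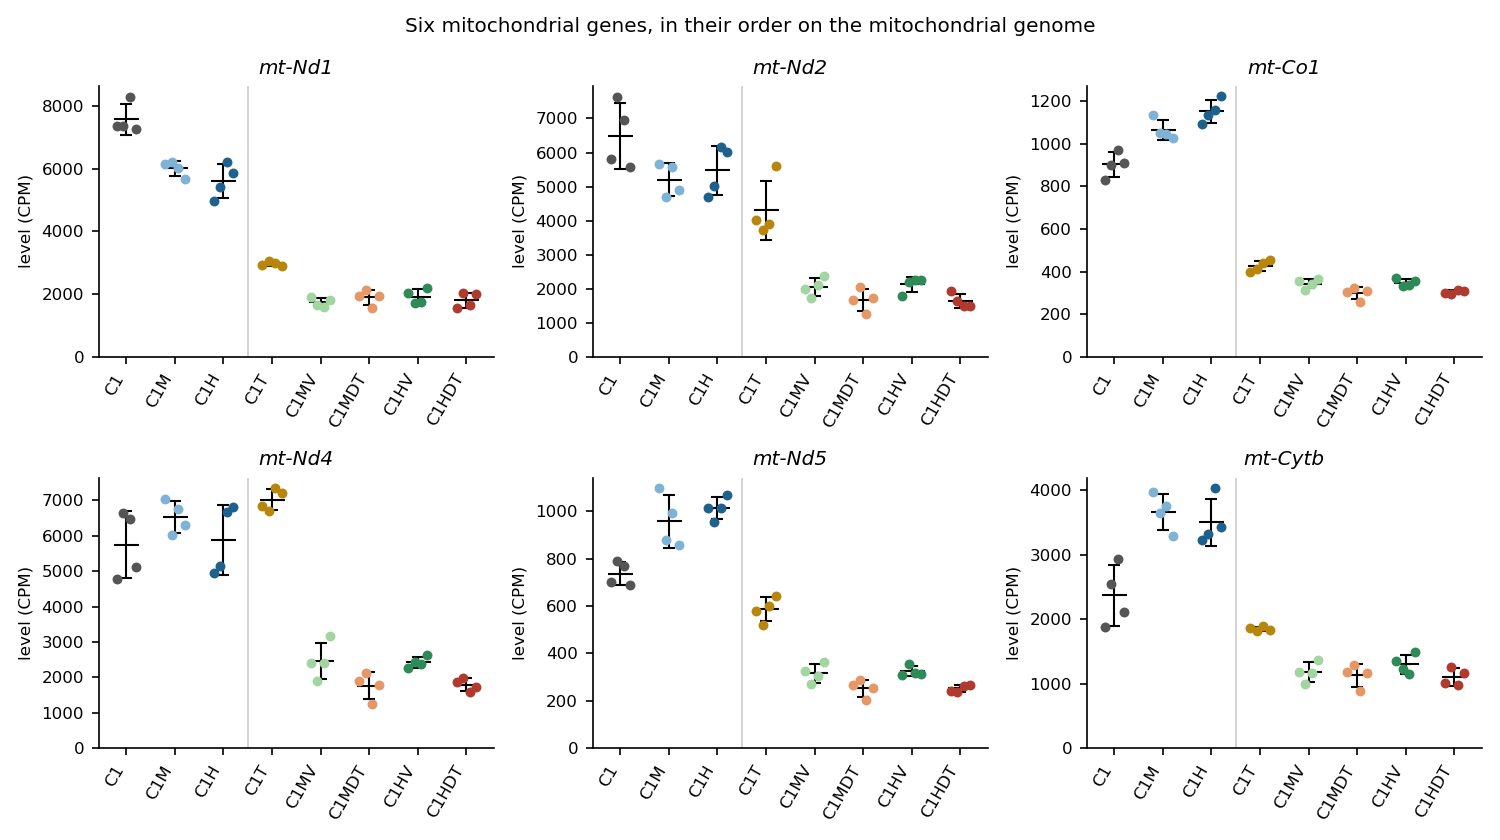
Level in CPM (linear axes from 0) of the 6 mitochondrial genes that hold 99.7% of the mitochondrial reads, by library, with mean and SD of 4 and a grey line between day 0 and day 4. In C1T, mt-Nd4 (6682 to 7335 CPM) is above its C1 levels while mt-Nd1 and mt-Co1 are below theirs, and in the 4 groups induced beforehand all 6 are low.

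The day 4 groups that had been induced were then set against C1T, which had not been. All 6 abundant mitochondrial genes fell in each of the 4 comparisons, and mt-Nd4 differed the most. In C1T it was at 6682 to 7335 CPM, and it was at 2392, 1897, 2405 and 3154 CPM in C1MV and 2253, 2432, 2386 and 2632 in C1HV, without overlap (log2 fold changes -1.51 ± 0.15 and -1.53 ± 0.15, adjusted p = 6.87e-09 and 6.35e-09). With dox kept the log2 fold changes were -1.99 ± 0.15 in C1MDT and -1.97 ± 0.15 in C1HDT. At the other end, mt-Co1 was -0.29 ± 0.071 in C1HV and -0.52 ± 0.071 in C1MDT on the log2 scale. These comparisons share the C1T libraries and are not independent.

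Of the 12 tested mitochondrial members, 6 fell in C1MV (14.9% of all tested genes fell) and 7 in C1MDT (16.5%) against C1T. In C1HV 8 fell (14.3%) and in C1HDT 8 (16.1%). In all 4 groups 0 rose, by DESeq2 and at an unadjusted p below 0.05 also 0. By DESeq2 7 fell in C1HV, mt-Atp8 being lost (adjusted p = 0.0748). The mt-Atp8 and mt-Atp6 calls in C1HV were also lost without single libraries (adjusted p up to 0.134 and 0.0854). In C1HDT the mt-Nd6 call was lost without C1T replicate 2 (adjusted p = 0.0575). The test of whether the change from day 0 to day 4 differed between induced and uninduced cells, (C1HDT - C1T) - (C1H - C1), gave -2.0 ± 0.21 for mt-Nd4, -1.67 ± 0.11 for mt-Nd5 and -0.83 ± 0.097 for mt-Co1 on the log2 scale (adjusted p = 3.46e-08, 6.30e-25 and 8.47e-13), and 6 of 12 mitochondrial members were lower by it, against 12.6% of all tested genes. For mt-Nd1 the same test gave -0.29 ± 0.12 (adjusted p = 0.079), so mt-Nd1 did not pass it. The middle dose, (C1MDT - C1T) - (C1M - C1), also gave 6 of 12 lower, against 12.6%. Marker genes of other lineages moved with the same split: the 4 endoderm markers summed to 2.611 to 11.24 CPM in C1T and 72.58 to 133.1 in the 4 groups induced beforehand, and the 5 fibroblast markers to 2.879 to 10.01 and 21.5 to 35.76. The 4 neural markers summed to 133.8 to 162.7 CPM in C1T, 115.3 to 145.7 in C1MV and C1HV and 175.2 to 223.2 in C1MDT and C1HDT, so that they were above every C1T library where the inducers were kept and within or below the C1T range where they were withdrawn. The naive markers were at 823.3 to 986.6 CPM in C1T, above all libraries of C1MDT and C1HDT (538.3 to 727.9) and below all of C1MV and C1HV (1159 to 1546). The epiblast markers were at 1086 to 1376 CPM in C1T, above all of C1MV and C1HV (592.2 to 682.6), and at 925.3 to 1094 in C1MDT and C1HDT. All 4 endoderm markers had reads in each group, and 4 or 5 of the 5 fibroblast markers did. Their part in the result was not tested.

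**Figure D3:**
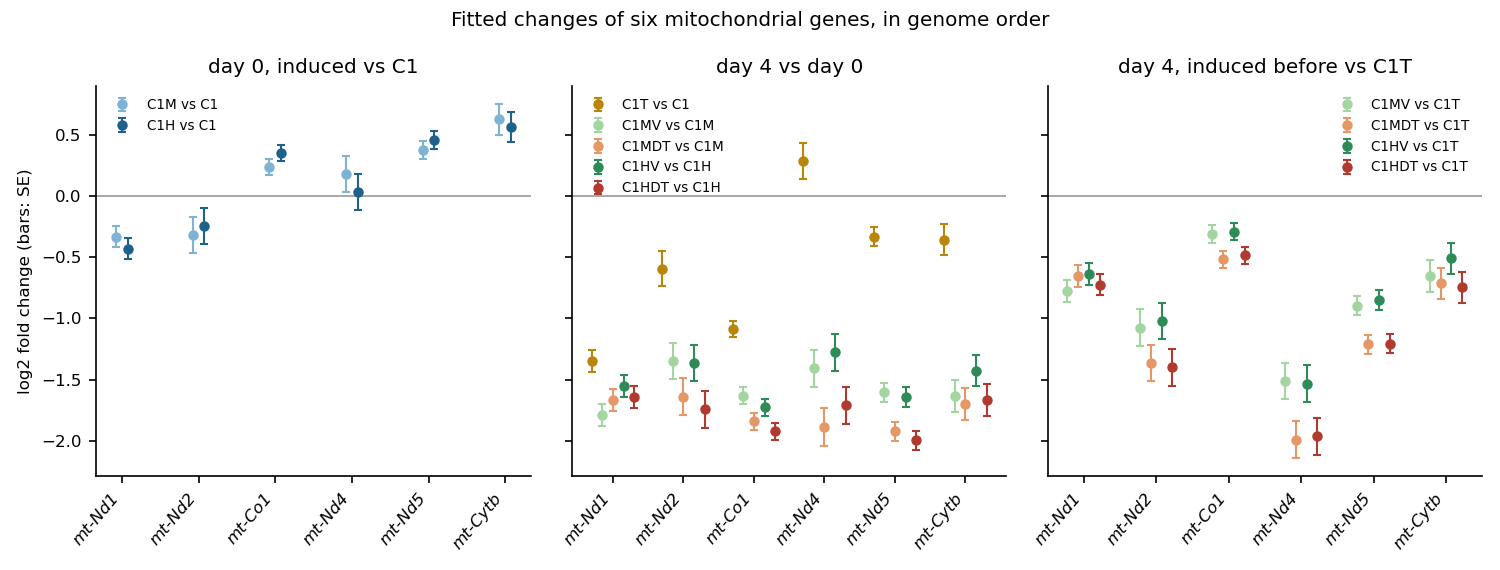
Fitted log2 fold changes (points) and standard errors (bars) of the 6 abundant mitochondrial genes, placed in their order along the mitochondrial genome. The left panel shows the induced day 0 groups against C1, with mt-Nd1 and mt-Nd2 below 0 and mt-Nd5 and mt-Cytb above it; the middle panel shows day 4 against day 0, where C1T against C1 stands apart at mt-Nd4; the right panel shows day 4 groups against C1T, where mt-Nd4 is lowest in each.

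At day 0, mitochondrial genes moved in both directions on induction. The sums of C1, C1M and C1H overlapped, with means 1.59% lower in C1M and 4.88% lower in C1H than in C1. The mt-Nd1 level was 6139, 6218, 6012 and 5680 CPM in C1M and 4967, 5431, 6217 and 5872 in C1H, all below the lowest C1 library (7259 CPM), and fell in both (log2 fold change -0.33 ± 0.087, adjusted p = 0.00376 in C1M and log2 fold change -0.43 ± 0.087, adjusted p = 0.000249 in C1H). In the opposite direction, mt-Cytb was at 1883, 2540, 2939 and 2108 CPM in C1, 3970, 3645, 3750 and 3292 in C1M and 3223, 3325, 4038 and 3429 in C1H, and rose in both without overlap (log2 fold change 0.63 ± 0.13, adjusted p = 0.00043 and log2 fold change 0.57 ± 0.13, adjusted p = 0.00133), the call in C1H being lost in a fit of those groups alone (adjusted p = 0.0551). The mt-Nd5 and mt-Co1 levels rose as well, by 0.38 and 0.24 on the log2 scale in C1M and by 0.46 and 0.35 in C1H, the mt-Co1 call in C1M being lost without C1 replicate 1 (adjusted p = 0.0509). Neither mt-Nd2 nor mt-Nd4 passed the test in either group. Markers of cell state also separated C1 from both induced groups at day 0. Beside the lower naive sum given above, with 6 of 8 naive markers fallen in C1M and 5 of 8 in C1H, the endoderm markers summed to 6.233 to 12.17 CPM in C1 and 14.03 to 21.28 in C1M and C1H, and the fibroblast markers to 6.715 to 11.03 and 13.45 to 20.54. All 4 endoderm and 5 fibroblast markers had reads in each of these groups, and the part of these markers in the day 0 results was not tested. The endoderm and fibroblast values are sums and do not give how many of their members passed the test.

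Thus 3 of 12 mitochondrial members rose and 1 fell in C1M (14.3% and 12% of all tested genes), and 4 rose and 1 fell in C1H (13.8% and 12.1%), the additional one being the low gene mt-Nd6 (9.86 to 12.2 CPM in C1 and 14.3 to 18.8 in C1H), whose call was lost when any of 5 libraries was left out (adjusted p up to 0.0558). Between C1H and C1M no mitochondrial member passed the edgeR test, against 0.713% of all tested genes rising and 1.06% falling, with 1 member at an unadjusted p below 0.05 and 0 by DESeq2.

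Nuclear members at day 0 differed between the doses, in the same libraries whose naive marker sums were below C1 and whose endoderm and fibroblast sums were above it, a difference whose part was not tested. In C1M, 23 of 66 rose and 2 fell, against the same 14.3% and 12% of all genes, and the median member was 0.16 on the log2 scale where the median of all tested genes was 0.055. Complex IV made up 10 of the risen members, complex I 11 and complex III 2, and no complex II gene passed. In C1H the picture differed, with 4 members risen and 9 fallen by TMM but 12 risen and 5 fallen when libraries were scaled by size alone (13.8% and 12.1% of all genes by TMM), and with a median of -0.031 against 0.041 for all genes. Of the 4 that rose, Cox6a2, Cox7b2 and Cox8c had 0 to 2 reads a library in C1, which leaves Cox6c. The call of Cox7b2 held neither by DESeq2 (adjusted p = 0.062) nor without any of 6 libraries (up to 0.0891). Directly compared, 0 nuclear members were higher and 10 lower in C1H than in C1M (0 and 34 at an unadjusted p below 0.05, 0 and 13 by DESeq2), against 0.713% and 1.06% of all tested genes. Leaving out C1M replicate 2 reduced the 10 to 4, leaving out C1M replicate 1, C1H replicate 1 or C1H replicate 2 reduced them to 5, 5 and 6, and a fit of these 2 groups alone gave 22.

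Among the members by which the day 0 groups differed, Cox6c, a small subunit of complex IV, stood at 570, 516, 561 and 652 CPM in C1, 817, 841, 783 and 882 in C1M and 751, 725, 676 and 770 in C1H, above every C1 library in both, and rose (log2 fold change 0.53 ± 0.07, adjusted p = 1.56e-10 in C1M and log2 fold change 0.35 ± 0.07, adjusted p = 3.10e-05 in C1H), with 15.3% of its 3′ windows also present in a processed pseudogene, Cox6c2. Ndufb3, an accessory subunit of the membrane arm of complex I, rose in C1M (63, 96.8, 94.5 and 87.3 CPM in C1 and 137, 122, 126 and 108 in C1M, log2 fold change 0.54 ± 0.10, adjusted p = 1.14e-05). In the other direction Ndufc1 and Ndufa13, further accessory subunits of complex I, were lower in C1H than in any C1 library: Ndufc1 at 258, 252, 264 and 273 CPM against 391, 324, 330 and 350 (log2 fold change -0.42 ± 0.074, adjusted p = 2.11e-06) and Ndufa13 at 267, 235, 273 and 256 against 338, 338, 306 and 360 (log2 fold change -0.38 ± 0.072, adjusted p = 9.48e-06). In C1M the fall of Ndufc1 was smaller (-0.23) and was lost without C1 replicate 1 (adjusted p = 0.0755). Between C1H and C1M, Ndufb6 and Ndufs4 (both of complex I) had the largest falls among members whose libraries did not overlap, at 48.4 to 60.1 and 91.7 to 107 CPM in C1H and 62.8 to 83 and 126 to 137 in C1M (log2 fold changes -0.42 ± 0.11 and -0.41 ± 0.094). The Ndufb6 call was lost without any of 4 libraries (adjusted p up to 0.121), and 52.5% of its 3′ windows also lie in the overlapping gene Smim27.

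During differentiation most nuclear members that changed rose, in every starting state. Of 66 tested, 34 rose and 6 fell from C1 to C1T (24.4% and 24.9% of all tested genes), 28 and 8 from C1M to C1MV (22% and 23.9%), 33 and 9 from C1M to C1MDT (24.5% and 27.9%), 35 and 6 from C1H to C1HV (22% and 25.1%) and 52 and 4 from C1H to C1HDT (26.3% and 29.4%). The median member was 0.25, 0.20, 0.23, 0.30 and 0.50 on the log2 scale, where the median of all tested genes lay between -0.064 and 0.0084. In the 3 comparisons that share no library and kept their treatment (C1T with C1, C1MDT with C1M, C1HDT with C1H), 20 of 66 nuclear members rose in all, where 13.8% of all tested genes did, and 3 fell in all (Cox5a, Cox7a1 and Uqcrb), where 14.9% of all tested genes did. By the same count 8 of 12 mitochondrial members fell in all 3 and 0 rose in all 3.

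Complex I, the NADH entry point, holds 37 of the 67 nuclear members. Of these 22 rose and 2 fell from C1 to C1T (24.4% and 24.9% of all tested genes). From C1M to C1MV 20 rose and 3 fell (22% and 23.9%), and from C1M to C1MDT 22 and 3 (24.5% and 27.9%). From C1H to C1HV 25 rose and 1 fell (22% and 25.1%), and from C1H to C1HDT 32 and 0 (26.3% and 29.4%). Among those of the rule, Ndufs7, a subunit that carries an iron-sulfur cluster, stood at 67.5, 58.6, 69.2 and 66.4 CPM in C1H and 130, 138, 163 and 133 in C1HDT, without overlap (log2 fold change 1.10 ± 0.10, adjusted p = 1.38e-19). In uninduced cells it was at 104, 64.5, 76.8 and 94 CPM in C1 and 98.4, 91.2, 106 and 104 in C1T and did not pass (log2 fold change 0.22 ± 0.11, adjusted p = 0.0785). Ndufb3 showed the reverse order, at 226, 208, 209 and 178 CPM in C1T, above all C1 libraries (log2 fold change 1.28 ± 0.10, adjusted p = 5.00e-23), but at 134, 124, 108 and 123 in C1HDT and 102, 111, 93 and 109 in C1MDT. The test of the difference was -1.0 ± 0.14 for the high and -1.53 ± 0.14 for the middle dose (adjusted p = 2.87e-09 and 1.42e-17). Ndufa4l2, a paralogue of Ndufa4 known as a target of hypoxia signalling, was low, at 3.11 to 7.36 CPM in C1, 0 to 4.09 in C1M and C1H, 2.38 to 7.83 in C1T and 7 to 22.1 in the other day 4 groups. It rose in the 4 comparisons with C1M and C1H, by 2.58 to 3.02 on the log2 scale, and did not pass from C1 to C1T (log2 fold change -0.019 ± 0.40, adjusted p = 0.986). The day 0 starting levels differed, since Ndufa4l2 fell in C1M (-1.43) and C1H (-1.53) against C1 on the log2 scale, calls lost without C1 replicate 2, C1 replicate 4 or C1M replicate 2 (adjusted p = 0.0544, 0.0548 and 0.0527) and without C1H replicate 2 (0.0542).

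Complex II, succinate dehydrogenase, has only 4 genes, none of which passed from C1 to C1T. Sdhb, the iron-sulfur subunit, was at 288, 298, 276 and 317 CPM in C1H and 472, 544, 478 and 493 in C1HDT and rose without overlap (log2 fold change 0.75 ± 0.12, adjusted p = 7.04e-06). Sdha, the flavoprotein subunit, rose there too, from 173, 163, 155 and 150 to 214, 232, 203 and 195 CPM (log2 fold change 0.39 ± 0.083, adjusted p = 2.02e-05), and so did the membrane anchor Sdhc, from 43.3, 43.2, 37.4 and 46.2 to 65, 68.8, 62.8 and 61.3 CPM (log2 fold change 0.60 ± 0.12, adjusted p = 4.11e-06). Sdhd, the other membrane anchor, was the low one, at 16.4 to 19.5 CPM in C1H and 5.03 to 14.3 in C1HDT (log2 fold change -0.63 ± 0.38, adjusted p = 0.165), and its fall from C1M to C1MDT (adjusted p = 0.0472) was lost without any of 6 libraries (adjusted p up to 0.158). In C1MV, replicate 4 held the lowest Sdhb value (290 CPM, others 451 to 471).

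Complex III moved in both directions. Of its 8 members, Uqcrh (the hinge subunit) and Uqcrq rose in all 5 comparisons, by 0.36 to 0.85 and by 0.29 to 0.79 on the log2 scale, and Uqcrb fell in all 5, by 0.57 to 0.92. Uqcr10, a small subunit, fell in 4 and was at -0.018 ± 0.099 from C1H to C1HDT. These 4 genes were picked after their values were seen, and 17.3% of the 3′ windows of Uqcrb also occur in processed pseudogenes. The summed complex III level was higher at day 4 without overlap in 1 of the 5 comparisons, by 30.8% from C1H to C1HDT, and in the other 4 its libraries overlapped and its mean changed by -0.522% (C1M to C1MV) to 6.12% (C1 to C1T).

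Complex IV, cytochrome c oxidase, held the members that fell furthest. Cox7a1, an isoform known from heart and skeletal muscle, was at 36.5, 32.8, 35.3 and 42.7 CPM in C1, 34.4, 30.5, 31.9 and 38.8 in C1M and 27.6, 34.2, 31.1 and 31.1 in C1H, and at 12, 9.16, 4.77 and 9.14 in C1T, 9.23, 8.48, 6.14 and 9.63 in C1MDT and 8.16, 9.08, 8.8 and 8.85 in C1HDT. Cox7a1 (ENSMUSG00000074218, GRCm38 chr7:30184144-30186078) fell in each of these without overlap (log2 fold change -2.07 ± 0.21, adjusted p = 2.83e-17 from C1 to C1T), and in C1MV and C1HV as well (log2 fold changes -1.12 ± 0.18 and -1.44 ± 0.20). Cox5a (ENSMUSG00000000088, chr9:57521274-57532426), a subunit without isoforms, went from 464, 436, 453 and 474 CPM in C1 to 275, 248, 223 and 236 in C1T and fell in all 5 comparisons, by 0.59 to 0.90 on the log2 scale, and 24.6% of its 3′ windows also lie in the lncRNA gene Gm26631. Cox4i1 (ENSMUSG00000031818, chr8:120668222-120674207), the ubiquitous isoform of subunit 4 whose gene overlaps Emc8 on the other strand, moved the other way in cells induced beforehand, at 539, 594, 630 and 570 CPM in C1H and 924, 971, 1083 and 1054 in C1HDT (log2 fold change 0.79 ± 0.073, adjusted p = 9.82e-18), and not in uninduced cells, at 575, 528, 548 and 592 in C1 and 614, 632, 575 and 634 in C1T (log2 fold change 0.13 ± 0.075, adjusted p = 0.145). Cox7c, at 211 to 338 CPM in C1 and 604 to 672 in C1T, rose (log2 fold change 1.24 ± 0.14, adjusted p = 1.83e-08) and was at 318 to 584 CPM in the other day 4 groups, with 39.9% of its 3′ windows also present in a pseudogene or another transcript.

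**Figure D4:**
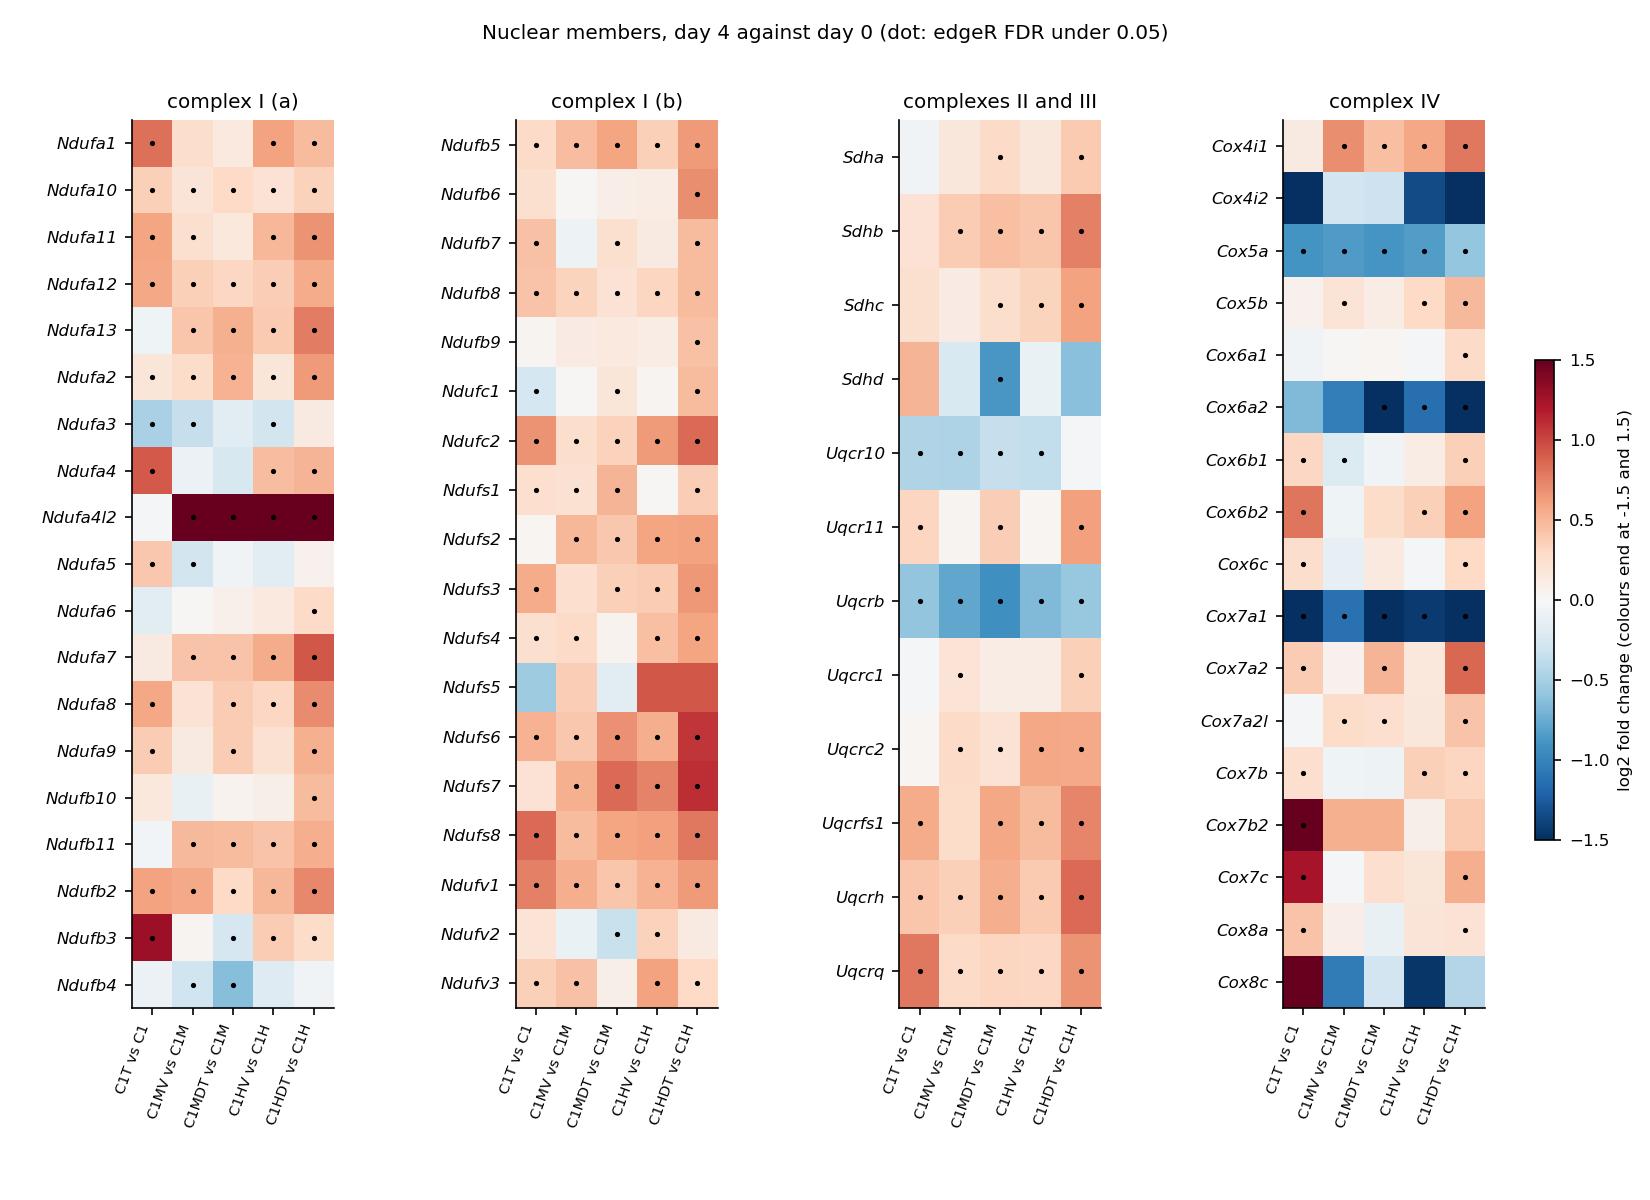
Log2 fold changes of the 66 tested nuclear members (rows, by complex, with complex I in 2 columns) in the 5 comparisons of day 4 with day 0 (columns); red is higher at day 4, blue lower, colours end at 1.5 in both directions, and dots mark an edgeR FDR below 0.05. Most dotted cells are red, Cox7a1, Cox5a and Uqcrb are blue throughout, and the C1HDT column has 52 red and 4 blue dots.

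Several complex IV subunits exist as isoforms, and several of those known from other tissues were close to absent. Cox4i2, Cox7b2, Cox8b and Cox8c were on average at 0.683, 0.865, 0.0504 and 0.91 CPM, with 3 reads in a library worth between 0.822 and 2.19 CPM, so no fold is read from them. Against C1, where both had 0 reads in all 4 libraries, Cox8c passed in C1M and C1H and Cox7b2 in C1H alone (adjusted p = 0.0383, and 0.0511 in C1M). Cox6a2, the muscle isoform of subunit 6a, was at 0, 1.13, 0.519 and 0.959 CPM in C1, 5.94, 5.68, 3.59 and 4.54 in C1M and 6.47, 5.23, 5.86 and 3.36 in C1H, so that every induced library exceeded every C1 library, and passed in both (adjusted p = 8.11e-05 and 3.17e-05), with no fold given since C1 held 0 to 2 reads a library. With the inducers kept it fell from C1M to C1MDT and from C1H to C1HDT, to 0.577 to 2.23 and 0.68 to 2.93 CPM (adjusted p = 0.000507 and 0.00101, on 1 to 8 reads a library). With the inducers withdrawn it was at 0.727 to 5.24 CPM in C1MV and 1.7 to 3.25 in C1HV, on 2 to 13 reads a library. From C1M to C1MV it did not pass (adjusted p = 0.0537), and from C1H to C1HV its call (adjusted p = 0.0391) was lost by DESeq2 (0.061) and without any of 6 libraries (up to 0.0992). Against C1T, with 0 to 2 reads a library, it passed in C1HV (adjusted p = 0.00993) and in C1MV (0.00755, but 0.163 without C1MV replicate 1). Its ubiquitous partner Cox6a1 was at 401 to 564 CPM in the day 0 libraries and 407 to 675 in the day 4 libraries.

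Cox6b2, known as the testis isoform of subunit 6b, was plainly expressed and highest in C1T, at 173, 185, 153 and 198 CPM, against 93.6, 128, 96.5 and 90.6 in C1 (log2 fold change 0.80 ± 0.14, adjusted p = 1.28e-05). It was at 67 to 164 CPM in the other day 4 groups, and was lower than in C1T in C1MV (log2 fold change -0.89 ± 0.14, adjusted p = 4.75e-06), C1MDT (-0.56) and C1HV (-0.61). In C1HDT the difference (-0.36, adjusted p = 0.0335) was lost without any of 6 libraries (adjusted p up to 0.107). Among the other isoform genes, Cox6b1, Cox7b and Cox8a rose from C1 to C1T by 0.31, 0.25 and 0.42 on the log2 scale, the first and second calls being lost without single libraries (without C1 replicate 1, adjusted p = 0.0534 and 0.103), and Cox7a2l was at -0.024 ± 0.075. Ndufa4 was at 15.9, 18.1, 31.7 and 14.9 CPM in C1 and 38.4, 42.9, 32.4 and 36.6 in C1T, without overlap (log2 fold change 0.92 ± 0.17, adjusted p = 2.08e-06).

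Keeping the inducers during differentiation was compared with withdrawing them. At the high dose 28 of 66 nuclear members were higher and 1 lower in C1HDT than in C1HV (9.1% and 6.88% of all tested genes), with a median of 0.25 on the log2 scale against 0.0 for all genes. At the middle dose 8 were higher and 4 lower in C1MDT than in C1MV (6.64% and 5.95%), with a median of 0.032 against -0.018. Cox7a2, the ubiquitous isoform of subunit 7a, led both: it was at 472, 395, 477 and 446 CPM in C1HV and 712, 788, 704 and 726 in C1HDT (log2 fold change 0.71 ± 0.074, adjusted p = 2.40e-14), and at 468, 538, 558 and 404 in C1MV and 661, 681, 734 and 606 in C1MDT (log2 fold change 0.44 ± 0.073, adjusted p = 8.84e-07), without overlap in either. Uqcr11, a small subunit of complex III, was higher at both doses too, at 143, 106, 122 and 114 CPM in C1HV and 162, 198, 182 and 189 in C1HDT (log2 fold change 0.59 ± 0.091, adjusted p = 1.31e-07), and at 140, 141, 146 and 114 in C1MV and 170, 170, 185 and 160 in C1MDT (log2 fold change 0.33 ± 0.089, adjusted p = 0.00493). Ndufv3, of the NADH-binding module of complex I, was the member that was lower in C1HDT (log2 fold change -0.30 ± 0.091, adjusted p = 0.0129), and Cox7a1 was lower in C1MDT (log2 fold change -0.91 ± 0.22, adjusted p = 0.00137). Without C1HV replicate 2 the 29 calls at the high dose became 18, and without C1HDT replicate 4 they became 19. Markers of cell state moved with the same split, without overlap: the naive markers summed to 1159 to 1439 CPM in C1HV and 538.3 to 727.9 in C1HDT, the epiblast markers to 638.6 to 682.6 and 963.3 to 1094, and the neural markers to 115.3 to 145.7 and 175.2 to 216.6. At the middle dose the naive markers were at 1235 to 1546 CPM in C1MV and 582.6 to 696.8 in C1MDT, the epiblast markers at 592.2 to 673.6 and 925.3 to 1064, and the neural markers at 117.7 to 132.7 and 212.7 to 223.2. All 8 naive, 4 epiblast and 4 neural markers had reads in each of these groups, and their part in the result was not tested.

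The mitochondrial genes went against the nuclear ones here too, but weakly. In each dose 3 of 12, mt-Nd4, mt-Nd5 and mt-Co1, were lower with the inducers kept, against 5.95% of all tested genes at the middle and 6.88% at the high dose, and 0 were higher, against 6.64% and 9.1% (at an unadjusted p below 0.05, 0 higher at the middle and 1 at the high dose, by DESeq2 0 in both). Only mt-Nd5 kept its call at the high dose under all alternatives tried, at 310, 355, 318 and 316 CPM in C1HV and 243, 237, 264 and 269 in C1HDT (log2 fold change -0.36 ± 0.081, adjusted p = 0.000558). At the middle dose the 3 became 0 without C1MDT replicate 3 and 1 without C1MV replicate 1, 3 or 4, and at the high dose 1 without C1HV replicate 1, C1HV replicate 4 or C1HDT replicate 3. At the high dose mt-Nd4 was lost without any of 7 libraries and mt-Co1 without any of 5 (adjusted p up to 0.135 and 0.152), both of them without C1HDT replicate 1 as well (0.0507 and 0.0603).

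Against C1T, the counts of nuclear members called differed among the 4 groups induced beforehand, and the doses were not tested against each other at day 4. In C1HDT 33 of 66 were higher and 6 lower (17.4% and 16.1% of all tested genes), in C1MDT 25 and 13 (16.9% and 16.5%), in C1MV 18 and 10 (15.3% and 14.9%) and in C1HV 10 and 14 (13.7% and 14.3%), the last balance turning to 14 and 10 when libraries were scaled by size alone. It also turned without C1T replicate 2 or C1HV replicate 4 (11 and 8 in both) and without C1HV replicate 2 (14 and 12). Cox4i1 was higher than in every C1T library (575 to 634 CPM) in each of the 4 groups (0.51 to 0.79 on the log2 scale), and so was Ndufa7, an accessory subunit of complex I, at 222, 240, 236 and 246 CPM in C1T and 413, 423, 424 and 424 in C1HDT (log2 fold change 0.83 ± 0.077, adjusted p = 1.57e-18). Ndufb3 and Cox7c were lower in all 4, by 0.64 to 0.99 and by 0.42 to 0.79, the smallest Cox7c call being lost without C1HDT replicate 3 (adjusted p = 0.0598). In the test of the difference between induced and uninduced cells in the change over time, 27 nuclear members were higher and 4 lower at the high dose (12.7% and 12.6%) and 11 and 16 at the middle dose (11.8% and 12.6%), the latter turning to 13 and 11 without C1MDT replicate 4.

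**Figure D5:**
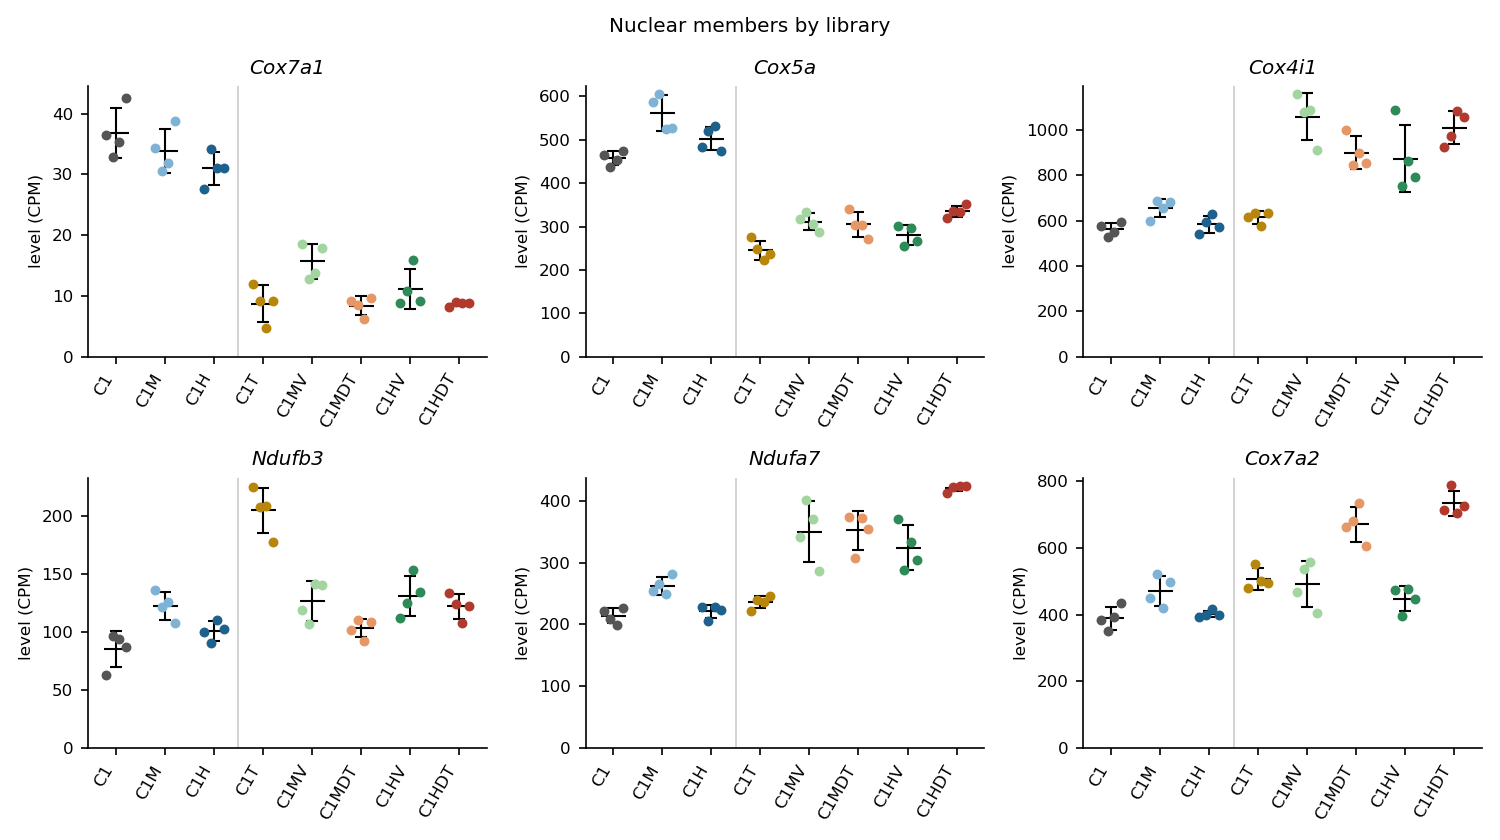
Level in CPM (linear axes from 0) of 6 nuclear members by library, with mean and SD of 4 and a grey line between day 0 and day 4. Cox7a1 and Cox5a are lower in all day 4 groups than at day 0, Cox4i1 and Ndufa7 are higher in the 4 groups induced beforehand than in C1T, Ndufb3 is highest in C1T (178 to 226 CPM), and Cox7a2 is highest in C1MDT and C1HDT (606 to 788 CPM).

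Promoters of the nuclear members were read from RefSeq (GRCm38.p6, 250 bases before to 50 after the gene start), where 53 of the 67 had an entry. The factors NRF1 and GABP are known to act on respiratory genes, and their core letters were searched on both strands as CGCATGCG and CCGGAAG, of which neither contains the other. The first was found in 5 of 53 promoters (9.43%) and in 2.07% of the 27025 promoters in the table, the second in 11 (20.8%) and 9.93%, and either in 14 (26.4%) and 11.6%. A match describes letters in a window and no binding was measured. Shown are Cox6a1 (chr5:115348909-115349208, minus strand) and Uqcr11 (chr10:80406772-80407071, minus strand), the members that hold both, and Cox7a1 (chr7:30183921-30184220, plus strand), the member with the largest fall, which holds neither, with matches in capitals and each read along its gene.
Cox6a1: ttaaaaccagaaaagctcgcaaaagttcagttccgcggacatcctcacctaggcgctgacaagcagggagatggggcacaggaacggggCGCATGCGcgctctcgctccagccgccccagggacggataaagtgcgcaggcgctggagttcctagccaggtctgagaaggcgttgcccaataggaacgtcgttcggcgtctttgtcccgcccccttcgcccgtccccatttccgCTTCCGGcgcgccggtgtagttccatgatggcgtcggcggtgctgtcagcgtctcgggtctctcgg
Uqcr11: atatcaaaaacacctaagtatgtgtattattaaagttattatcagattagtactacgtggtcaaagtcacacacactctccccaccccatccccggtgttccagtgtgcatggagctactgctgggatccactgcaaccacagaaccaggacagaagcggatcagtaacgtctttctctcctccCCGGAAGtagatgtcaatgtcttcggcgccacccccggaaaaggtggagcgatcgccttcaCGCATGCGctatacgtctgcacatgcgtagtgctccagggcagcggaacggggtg
Cox7a1: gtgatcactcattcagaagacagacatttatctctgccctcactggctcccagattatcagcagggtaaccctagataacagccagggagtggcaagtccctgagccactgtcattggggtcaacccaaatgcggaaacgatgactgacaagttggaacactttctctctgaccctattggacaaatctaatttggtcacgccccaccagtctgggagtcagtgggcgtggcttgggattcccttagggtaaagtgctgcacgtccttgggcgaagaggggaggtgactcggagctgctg
Uqcr11, which holds both, rose from C1 to C1T (log2 fold change 0.33 ± 0.094, adjusted p = 0.00191) and was at 129, 101, 113 and 138 CPM in C1 and 145, 165, 139 and 156 in C1T, while Cox6a1, which also holds both, did not pass (log2 fold change -0.054 ± 0.076, adjusted p = 0.587).

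Other genes of the pathway were read as lists. The nuclear subunits of ATP synthase, which spend the proton gradient, rose from C1 to C1T in 17 of 18 cases, at a median of 0.47 on the log2 scale, but stood at 5 higher and 6 lower in C1HDT against C1T (17.4% and 16.1% of all tested genes). Mitochondrial ribosomal proteins, which translate the 13 mitochondrial mRNAs, rose in 39 and fell in 3 of 77 from C1 to C1T and rose in 52 and fell in 1 from C1H to C1HDT (medians 0.34 and 0.49, with 26.3% and 29.4% of all genes in the latter). In C1HV against C1T 27 of them were lower and 3 higher (14.3% and 13.7% of all genes). Electron carriers and quinone enzymes rose in 11 and fell in 3 of 19 from C1 to C1T, and assembly factors of complexes I to IV in 15 and 3 of 44. These 4 lists thus had more members rising than falling on uninduced differentiation, where 24.4% of all genes rose and 24.9% fell.

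Lists closer to the mitochondrial genome held both rising and falling members, and their counts are read against 24.4% of all tested genes rising and 24.9% falling from C1 to C1T and 26.3% and 29.4% from C1H to C1HDT. Of 16 tested genes for mitochondrial DNA copying and transcription, 3 rose and 2 fell from C1 to C1T and 3 rose and 3 fell from C1H to C1HDT, with medians of 0.087 and -0.061 on the log2 scale, shares below those of all genes. Of 15 for mitochondrial RNA processing and stability, 6 rose and 5 fell from C1 to C1T and 5 rose and 3 fell from C1H to C1HDT. Of 11 nuclear regulators of respiratory genes, 4 rose and 1 fell from C1 to C1T and 3 rose and 4 fell from C1H to C1HDT. Of 13 genes for mitochondrial protein quality control, 6 rose and 3 fell and 6 rose and 1 fell in the same comparisons. Stress and immediate early genes, a sign of handling, fell in 6 of 12 from C1 to C1T and in 8 of 12 from C1H to C1HDT, and rose in 5 and 6 of 12 and fell in 1 and 2 in C1M and C1H against C1 (all genes 14.3% and 13.8% rising, 12% and 12.1% falling), and their part in the results was not tested.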

How the data were processed

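Gene expression was measured by 3′ tag sequencing (QuantSeq FWD, single-end) in 32 libraries of 8 groups with 4 biological replicates each. The authors trimmed the reads, aligned them with STAR to the mouse genome mm10, counted reads with a single alignment per gene with htseq-count, and deposited 1 table of raw counts per library, without normalization. The 5 summary rows of the counting program name no gene and were left out of library sizes and tests. Reads aligned to more than 1 place made up 49.43% to 56.38% of what the program classified, and genes whose 3′ ends have copies may be undercounted.

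Counts were fitted in R 4.3.3 with edgeR 4.0.16 (TMM, robust quasi-likelihood, a single model of 8 groups) over the 15280 genes that reached 1 CPM in 4 or more libraries, and p-values were adjusted over these by Benjamini-Hochberg at 0.05. All tests were two-sided. DESeq2 1.42.0, other scalings, filters and fits, a replicate block and leaving out each library were the alternatives. The scripts were tested on simulated counts. The precision rests on 1366951 to 3648787 reads on genes per library. A count of 0 allows up to 3 reads, which covers counting error only.

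Members were matched by symbol. Sequences and positions came from GENCODE M21 (GRCm38) and RefSeq (GRCm38.p6), and a 3′ end was called repeated where a window of 100 bases in its last 400 occurs in another annotated transcript. Genes named are the 13 mitochondrial genes, the isoform families, and per comparison and direction the 2 nuclear members with the largest called change whose libraries did not overlap, above a minimum level, plus others stated as picked after their values were seen. The pathway lists are assembly factors, ATP synthase, electron carriers, mitochondrial DNA and RNA upkeep, mitochondrial ribosome, regulators, protein quality control and stress genes, with markers of naive, epiblast, neural, endoderm and fibroblast cells. The members and lists were chosen with earlier results of these data known.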

Additional observations from a re-analysis of the deposited data

Results flagged for a closer look

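In 22 of 341 groups of 4 libraries, 1 library stood far from the other 3 (a gap above the 95% critical value of Dixon's ratio), where chance alone flags about 1 in 20 groups. Of the sums, the nuclear one was lowest in C1MV replicate 4 (12861 CPM, the others 14161 to 14399) and the mitochondrial one highest in C1HV replicate 4 (9267 CPM, the others 8108 to 8295). Mitochondrial genes with 1 high library were mt-Nd1 in C1 replicate 3 (8300 CPM, the others 7259 to 7373), mt-Nd2 in C1T replicate 4 (5595 CPM, the others 3729 to 4023), mt-Nd6 in C1 replicate 1 (12.2 CPM, the others 9.86 to 10.2) and mt-Co3 in C1 replicate 1 (49.5 CPM, the others 29.6 to 32.6). Mitochondrial genes with 1 low library included mt-Nd2 in C1HV replicate 1 (1782 CPM, the others 2211 to 2263). Nuclear genes with 1 high library were Cox4i2 in C1 replicate 2 (2.83 CPM, the others 0 to 0.479), Cox4i2 in C1MDT replicate 1 (3.46 CPM, the others 0 to 0.558), Cox6b2 in C1 replicate 2 (128 CPM, the others 90.6 to 96.5) and Cox7b2 in C1HDT replicate 2 (1.91 CPM, the others 0.68 to 0.838). Nuclear genes with 1 high library were Ndufa4 in C1MDT replicate 3 (33.5 CPM, the others 28.3 to 29.1), Ndufc1 in C1HV replicate 1 (322 CPM, the others 245 to 258), Uqcr11 in C1M replicate 4 (150 CPM, the others 126 to 129) and Ndufv3 in C1 replicate 3 (147 CPM, the others 137 to 139). Nuclear genes with 1 low library were Cox6a1 in C1MV replicate 4 (410 CPM, the others 576 to 598), Cox6b1 in C1 replicate 1 (131 CPM, the others 161 to 165), Sdhb in C1MV replicate 4 (290 CPM, the others 451 to 471) and Ndufb6 in C1T replicate 4 (51.6 CPM, the others 62.5 to 64.5). Nuclear genes with 1 low library were Cox7c in C1M replicate 4 (330 CPM, the others 395 to 397), Ndufa7 in C1HDT replicate 1 (413 CPM, the others 423 to 424) and Ndufv3 in C1HV replicate 2 (151 CPM, the others 170 to 172). 

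Among the genes named by rule, for 45 pairs of gene and dose the change from day 0 to day 4 differed between induced and uninduced cells by the edgeR test of the difference itself (adjusted p below 0.05 over all tested genes), and only these are listed, not the other members that passed. At the middle dose the log2 difference of mitochondrial genes was below 0 for mt-Nd2 (-1.05), mt-Co1 (-0.75), mt-Atp8 (-3.93), mt-Nd4 (-2.18), mt-Nd5 (-1.59) and mt-Cytb (-1.34). At the middle dose the log2 difference of nuclear genes was above 0 for Ndufs7 (0.63), Sdha (0.34), Cox7a2l (0.28), Cox4i1 (0.32), Ndufa13 (0.59), Ndufc1 (0.44), Ndufa4l2 (2.60) and Ndufa7 (0.28). At the middle dose the log2 difference of nuclear genes was below 0 for Cox7c (-0.98), Ndufb3 (-1.53), Ndufa4 (-1.16), Cox7b (-0.32), Cox8a (-0.53), Cox6b1 (-0.37) and Cox6b2 (-0.53). At the high dose the log2 difference of mitochondrial genes was below 0 for mt-Nd2 (-1.15), mt-Co1 (-0.83), mt-Nd4 (-2.0), mt-Nd5 (-1.67), mt-Nd6 (-2.12) and mt-Cytb (-1.31). At the high dose the log2 difference of nuclear genes was above 0 for Cox5a (0.31), Sdhb (0.53), Ndufs7 (0.88), Sdha (0.44), Ndufs4 (0.35), Cox7a2l (0.45), Cox4i1 (0.66), Cox7a2 (0.49), Ndufa13 (0.84), Ndufc1 (0.73), Ndufa4l2 (2.67), Cox6a1 (0.34), Ndufa7 (0.79) and Ndufb6 (0.45). At the high dose the log2 difference of nuclear genes was below 0 for Cox7c (-0.70) and Ndufb3 (-1.0). Cox7b2 also passed at both doses, but it had 0 reads in all C1 libraries and 0 to 6 in the others, so that its fitted values (-4.71 and -4.85) are not read as the size of a difference. The mt-Atp8 value rests on 0 to 7 reads a library and was lost without any of 5 libraries (adjusted p up to 0.103). Also lost without at least 1 library were, at the middle dose, Cox6b1, Cox6b2, Cox7a2l, Cox7b, Cox7b2, Ndufa7 and Sdha (adjusted p up to 0.156) and, at the high dose, Ndufb6, Ndufs4 and Sdhb (up to 0.208). Under another setting the same held for Cox6b2, Cox7a2l, Cox7b and Ndufa7 at the middle dose and for Cox5a, Ndufb6 and Ndufs4 at the high dose. No explanation of these differences was tested.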

How the results depend on the processing

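Summed over the alternatives, 520 values for counts of members called kept their direction and stayed within 1.5 times the reported count, 17 moved further and 7 turned the balance of higher and lower members. No call of a named gene was reversed under any setting, while 74 of 347 were lost without at least 1 library and 32 under at least 1 other setting. For nuclear members, scaling by library size alone gave 17 calls in C1H against C1 (12 higher and 5 lower) and 24 in C1HV against C1T (14 and 10), and the latter had 25 (13 and 12) without any filter. When a fit held only both groups at hand, it gave 22 nuclear and 1 mitochondrial call for C1H against C1M and 1 mitochondrial call for C1MDT against C1MV. Leaving out 1 library at a time gave ranges of 4 to 8 nuclear calls for C1H against C1M, 19 to 26 for C1HV against C1T, 18 to 30 for C1HDT against C1HV and 19 to 29 for (C1MDT - C1T) - (C1M - C1), which without C1MDT replicate 4 had 24. For mitochondrial calls the ranges were 0 to 3 for C1MDT against C1MV and 1 to 3 for C1HDT against C1HV. The cause of these shifts was not tested.

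No pairing by replicate number was seen over all genes. Same-numbered libraries of different groups had deviations with a mean correlation of -0.00163 (other numbers 0.000545), a mean that cannot show pairing of single genes. The paper treated the replicates as batches in its ComBat-Seq correction. A fit with a replicate block was made all the same, and by it the 3 mitochondrial calls of C1HDT against C1HV became 1, all other counts of calls stayed within 1.5 times, and 7 calls of named genes were lost. Depth limits the genes under about 3 reads a library, such as Cox4i2, Cox7b2, Cox8b and Cox8c, and the levels of mt-Co1, mt-Co2, mt-Co3, mt-Nd3, mt-Atp6 and mt-Nd4l may lack reads shared with copies.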
